A study of Mus musculus with 4 samples.

Results

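Amino acid transporters of the plasma membrane were examined as 41 of the 32592 genes in the table. They were taken by symbol, as the members of solute carrier (SLC) families 1, 3, 7, 36, 38 and 43, with earlier results of these data known. The pattern matched 45 rows, of which 3 rows with names ending in os and 1 further row were left out by the rule. The name fits most but not all of them. Slc38a7, Slc36a1 and Slc7a14 are known from lysosomes, Slc38a9 is a lysosomal sensor, and Slc43a3 carries purine nucleobases and not amino acids.

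The cells were CCE, a mouse embryonic stem cell line of strain 129/Sv, kept without feeders in serum medium with leukemia inhibitory factor. Polyadenylated RNA was sequenced from 2 libraries labelled knockdown, whose cells received shRNA (short hairpin RNA) against eIF4A2, and from 2 libraries labelled control, whose cells received control shRNA. All cells went through 3 days of puromycin selection at 1 µg/mL and were collected on day 4.5. The protocol lists sheIF4A2-2 and sheIF4A2-3, and shLuc and shEV as controls, without saying which library received which, and all cells belong to this 1 line. Separate cultures behind the libraries of a group are not stated, and the spread that p-values rest on may be technical.

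The targeted gene went against its label. Eif4a2, an RNA helicase of translation, had 752.5 and 814 normalized counts in libraries labelled knockdown, against 530.6 and 379 in libraries labelled control (log2 change 0.80, SE 0.15, limma adjusted p = 0.014). Each direction below therefore sets libraries by their labels, knockdown over control, and stands for no measured loss of the Eif4a2 transcript. Exchanged labels and an shRNA that did not lower the transcript cannot be told apart here, and exchanged labels would turn each direction round. Whole reads could be recovered from the table and totalled 4604200 (control 2) to 13681765 (control 1). The controls differed more from each other (median absolute log2 difference 0.198) than the knockdown libraries did (0.0955). Of 10 stem cell markers, 4 fell (40%, against 12.4% of all genes tested) and 0 rose in limma. Those that fell were Zfp42 (log2 change -1.06), Klf4 (-0.86), Esrrb (-0.66) and Sox2 (-0.49). The groups of 8 stood apart with knockdown libraries lower and those of 0 higher, against 34.6% and 32.1% of all genes tested. The median log2 change of the 10 was -0.36. It was -0.41, -0.30, -0.37 and -0.40 without knockdown 1, knockdown 2, control 1 and control 2. Pou5f1 (1841 to 2305 normalized counts) and Nanog (565.5 to 677), defining genes of stem cells, were not called and were present in all 4 libraries. Of 12 fibroblast markers, Dcn, Lum and S100a4 had no read, and 2 of the 7 tested rose (Col1a1 and Pdgfrb; 28.6%, against 10.5% of all genes tested). The median log2 change of the 7 was 0.56, and 0.71, 0.37, 0.35 and 0.73 with each library left out in the same order. Which of the 7 passed, and in which direction, changed with the library left out. Without overlap 5 of the 7 were higher and 1 (Vim) was lower, against 32.1% and 34.6% of all genes tested. The summed level of the fibroblast markers was 221.5 and 251.4 in knockdown against 233.9 and 258.6 in control libraries. Most of that sum was Vim, a gene of many cell types, at 165 and 189.9 in knockdown and 198.9 and 223.8 in control libraries. The other 11 markers summed to 56.6 and 61.5 in knockdown against 35 and 34.8 in control libraries, a split made after these values were seen. The part of such cells in the results was not tested, and fewer cells of a type and less RNA per cell cannot be told apart in bulk RNA.

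Cells take up essential and many nonessential amino acids through carriers with overlapping substrates. Some concentrate amino acids with the sodium or proton gradient, some exchange one amino acid for another, and the light chains of family 7 reach the cell surface only when bound to a heavy chain of family 3. When amino acids run short or eIF2 is phosphorylated, the transcription factor ATF4 is translated and induces several of these carriers together with enzymes of amino acid synthesis, through composite C/EBP-ATF elements in DNA.

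Such an element was searched for in the members' promoters, since it is the sequence through which ATF4 is known to act. The windows, from RefSeq on GRCm38.p6, run from 250 bases before to 50 bases after the gene start, with the first transcribed base as position 1 and the base before it as position -1. Of the 41 members, 30 had at least 1 window. The called members Slc1a5, Slc7a3, Slc7a4, Slc7a5 and Slc43a3 had none. The letters TGATGNAA, on either strand, stood in windows of 3 of these 30 members, against 4.51% of 27025 genes. By window they stood in 4 of 39 (10.3%), against 3.97% of 32851 windows of all genes. That count of member windows takes a site of Slc7a7 once in each of its overlapping windows. A window of each of the 3 members is shown in the direction of transcription, with the matches in capitals.
Slc1a4, chr11:20332664-20332963, minus strand: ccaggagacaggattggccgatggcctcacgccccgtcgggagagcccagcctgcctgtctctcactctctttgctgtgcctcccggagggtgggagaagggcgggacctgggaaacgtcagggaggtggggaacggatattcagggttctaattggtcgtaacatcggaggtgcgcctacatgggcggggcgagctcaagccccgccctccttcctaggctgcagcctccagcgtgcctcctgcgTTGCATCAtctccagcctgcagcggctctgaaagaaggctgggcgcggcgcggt
Slc7a11, chr3:50443564-50443863, minus strand: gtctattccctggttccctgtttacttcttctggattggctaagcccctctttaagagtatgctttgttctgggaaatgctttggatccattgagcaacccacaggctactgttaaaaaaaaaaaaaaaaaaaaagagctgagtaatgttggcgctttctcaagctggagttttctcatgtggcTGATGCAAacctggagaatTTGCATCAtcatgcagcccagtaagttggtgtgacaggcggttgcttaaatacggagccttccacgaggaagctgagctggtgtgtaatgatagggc
Slc7a7, chr14:54417895-54418194, minus strand: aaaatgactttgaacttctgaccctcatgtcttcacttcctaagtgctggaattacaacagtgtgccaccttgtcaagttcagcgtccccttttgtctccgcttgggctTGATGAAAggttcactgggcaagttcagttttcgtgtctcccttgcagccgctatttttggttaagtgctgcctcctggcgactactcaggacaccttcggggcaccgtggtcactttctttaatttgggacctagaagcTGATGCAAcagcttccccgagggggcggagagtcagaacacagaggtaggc

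In Slc1a4 the match was TGATGCAA on the opposite strand and began at position -4, across the start itself. Slc7a11 held the same 8 letters on both strands, beginning at -66 and -47. The window of Slc7a7 shown held TGATGAAA at -141 and TGATGCAA at -1. The same TGATGCAA site also lay in an overlapping window of that gene, at -243 from that window's start. The palindrome TGACGTCA (cyclic AMP response element) stood in the window of 1 member, Slc38a6, against 1.79% of all windows. The letters TGACNNNGC (antioxidant response element core) stood in windows of 5 members, 15.4% of member windows against 12.4% of all windows. No member held more than 1 of these 3 motifs. A match describes letters and does not show that a factor binds there. A missing match speaks for the window alone, since other parts of the genes were not searched.

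Of the 41 members, 28 had enough reads to be tested in limma, 5 rose and 5 fell at a Benjamini-Hochberg adjusted p below 0.05 over all genes tested. The members that fell were Slc1a4, Slc7a3, Slc7a5, Slc3a2 and Slc1a5. The members that rose were Slc43a3, Slc7a4, Slc43a1, Slc36a1 and Slc43a2. Among all 14890 genes tested, 10.5% rose and 12.4% fell (23.0% in either direction), so 5 of 28 members in each direction (17.9%) lay above that background, a difference that was not tested. The members' median log2 change was 0.12, against -0.01 for all genes. For 21 of the 28 members the libraries of the 2 groups stood apart, 10 higher and 11 lower, where 66.8% of all genes did not overlap. Leaving out a library changed the counts widely, among the members, in the lists of genes and over all genes. A fit with 1 library in a group takes its spread from the other group alone. Counts from such fits, here and in the lists, are therefore not to be set against the shares of all genes above. Without knockdown 1, 3 members rose and 3 fell. Without knockdown 2, 2 rose and 3 fell. Without control 1, 13 rose and 11 fell, and without control 2, 9 rose and 7 fell.

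**Figure D1:**
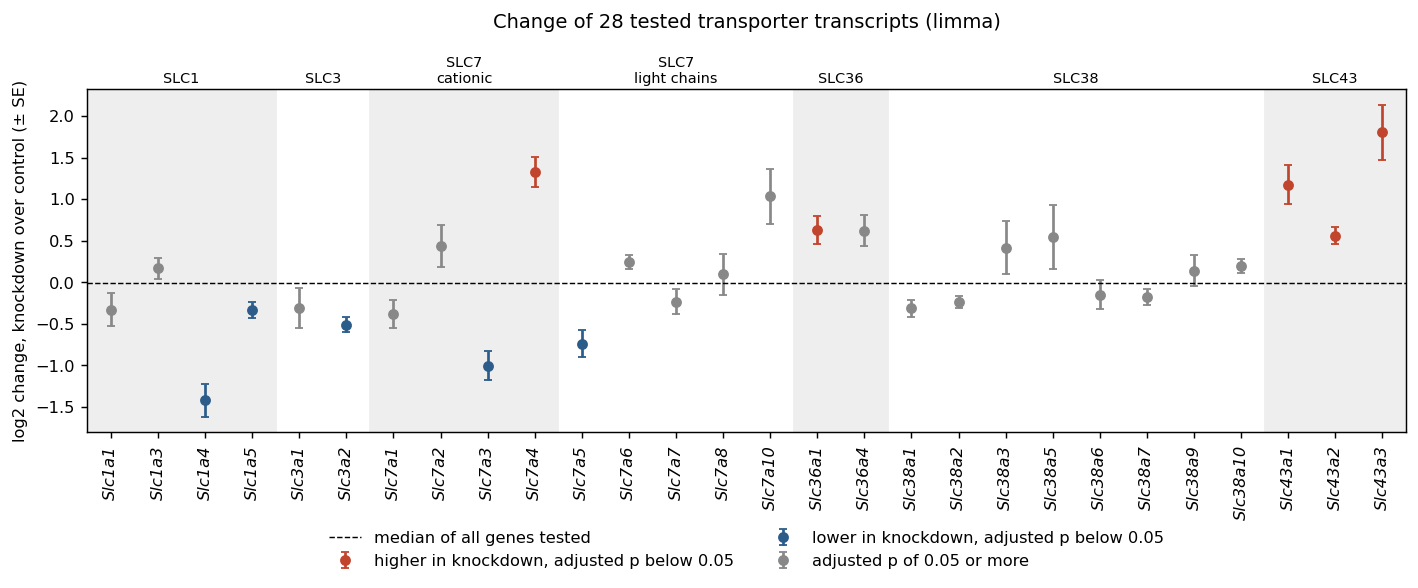
Log2 change (vertical axis, ± SE, limma) of the 28 tested members by family, in libraries labelled knockdown over control. The 5 members called lower lie in families 1, 3 and 7 and the 5 called higher in families 7, 36 and 43, while the 8 members of family 38 lie between -0.31 and 0.54 with none called.

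The heavy chain Slc3a2 (4F2hc), which carries light chains to the cell surface, was lower in the libraries labelled knockdown. It was at 237.9 and 234.8 normalized counts in knockdown libraries and at 316.1 and 358.9 in control libraries. The groups did not overlap, and the knockdown libraries lay close together (236.4 ± 2.24 against 337.5 ± 30.3, SD, n = 2 each). Slc3a2 fell 1.42-fold (log2 change -0.51, SE 0.09, limma adjusted p = 0.0112). It did not pass without knockdown 1 (adjusted p = 0.0586), without knockdown 2 (adjusted p = 0.0925) or without a variance trend in limma (adjusted p = 0.0553). The other heavy chain, Slc3a1 (rBAT), which serves cystine and basic amino acid uptake in kidney, stood at 6.39 and 7.48 in knockdown libraries and 6.92 and 11.1 in control libraries. Its groups overlapped (log2 change -0.31, SE 0.24, limma adjusted p = 0.389).

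Slc7a5 (LAT1), the light chain that brings in leucine and other large neutral amino acids in exchange for glutamine, was lower as well. Its level was 267.6 and 252.5 normalized counts in knockdown libraries and 360.1 and 523.2 in control libraries. Both knockdown libraries lay under both controls, and the controls stood far apart (260.1 ± 10.7 against 441.6 ± 115, SD, n = 2 each). Slc7a5 fell 1.67-fold (log2 change -0.74, SE 0.16, limma adjusted p = 0.0218). The log2 change was -1.01 without control 1 and -0.47 without control 2, and Slc7a5 did not pass without a variance trend (adjusted p = 0.0758).

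The other light chains of Slc3a2 did not pass. Slc7a6 (y+LAT2), an exchanger of basic for neutral amino acids, was at 82.7 and 85 normalized counts in knockdown libraries and 68.7 and 72.4 in control libraries. Its groups did not overlap, in the opposite direction to Slc7a5 (log2 change 0.25, SE 0.09, limma adjusted p = 0.083). By library size only (adjusted p = 0.0278) and by upper-quartile scaling (adjusted p = 0.0436) Slc7a6 passed as higher. Its close relative Slc7a7 (y+LAT1), whose promoter is shown above, overlapped between groups, at 82.8 and 76.5 against 79.4 and 110.7 in control libraries (limma adjusted p = 0.302). Exons of Slc7a7 overlap those of Oxa1l by 232 bases in GENCODE M21. Slc7a10 (Asc-1), a carrier of small neutral amino acids and D-serine, was at 2.04 and 2.8 normalized counts in knockdown libraries and 1.25 and 0.226 in control libraries, the last from 1 read. The authors' deposited table calls it higher (log2 fold change 1.31, adjusted p 0.017), while it missed the threshold in limma (adjusted p = 0.0619). Slc7a8 (LAT2), a carrier like LAT1, stood between 1.18 and 1.87 in all libraries, with a limma adjusted p of 0.802.

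Slc7a11 (xCT), the cystine-glutamate exchanger that feeds glutathione synthesis and a standard ATF4 target, was almost absent. It had 1 and 0 reads in knockdown libraries and 6 and 4 in control libraries, too few to be tested in limma. The ratio of reads was 0.0747, with a 95% exact interval of 0.00172 to 0.525 that covers counting error only. The authors' deposited table lists it as lower with an adjusted p of 0.0227. The promoter with its pair of TGATGCAA matches thus belongs to a gene with at most 6 reads in any of these libraries.

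Levels of different genes were compared per kb of annotated exon. That length joins all annotated exons of a gene and can exceed the length of a single transcript, so the order of genes depends on it. On this scale Slc7a5 had the highest mean of the 41 members (94.6 normalized counts per kb) and Slc3a2 the next (81.3), and their values over the 4 libraries overlapped. Slc38a2 (41.1) and Slc7a3 (35.3) followed, ahead of Slc38a10 and Slc7a7 (26.4 each). The 5 highest held 61.9% and 61.3% of the members' summed level in knockdown libraries, against 67.6% and 68.7% in control libraries. The light chains that pair with Slc3a2 summed to 116.5 and 111.5 per kb in knockdown libraries and 137 and 190.8 in control libraries. Their ratio to Slc3a2 was 1.73 and 1.68 in knockdown libraries and 1.53 and 1.88 in control libraries. The ratio thus overlapped between groups while both of its parts were lower in knockdown libraries. Within the light chains, the level of Slc7a5 was 3.99 and 3.66 times that of Slc7a6 in knockdown libraries and 6.46 and 8.9 times in control libraries. These ratios do not overlap and were not tested.

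**Figure D2:**
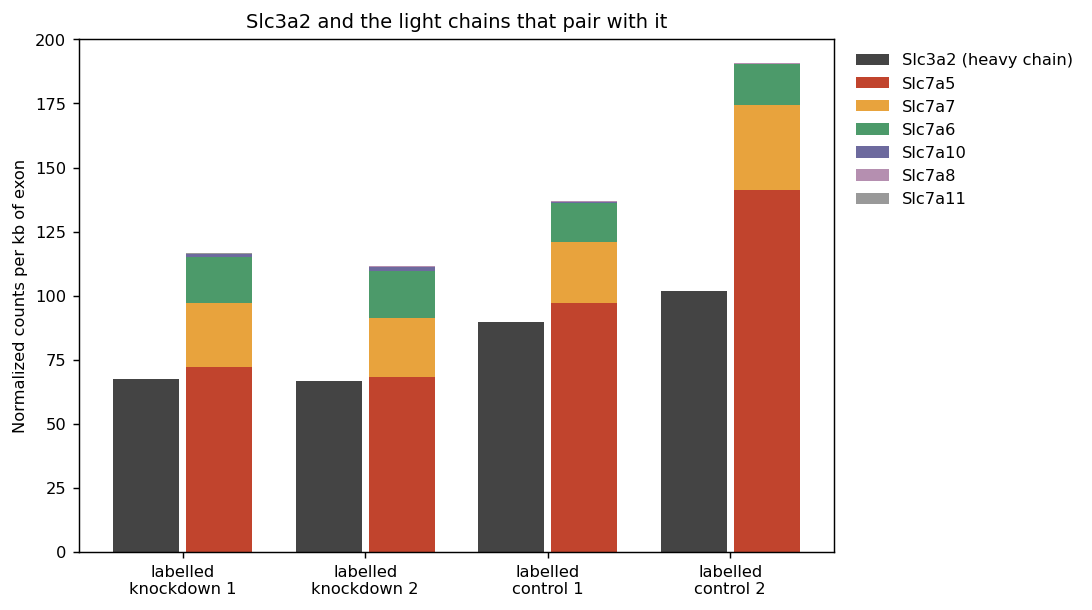
Normalized counts per kb of exon (vertical axis) for Slc3a2 and, stacked beside it, the light chains that pair with it, in each library. Slc3a2 and Slc7a5 are lower in both knockdown libraries, and the segments of Slc7a10, Slc7a8 and Slc7a11 are barely visible.

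Of 4 tested members in the cationic group of family 7, 1 fell (Slc7a3) and 1 rose (Slc7a4, which has no settled substrate). Slc7a3 (CAT3), which imports arginine and lysine, was at 88.2 and 86.9 normalized counts in knockdown libraries and at 143.7 and 216.1 in control libraries. Both knockdown libraries lay far below both controls, which differed from each other (87.5 ± 0.893 against 179.9 ± 51.2, SD, n = 2 each). Slc7a3 fell 2-fold (log2 change -1.0, SE 0.17, limma adjusted p = 0.0111), and the log2 change ran from -1.29 without control 1 to -0.71 without control 2. Slc7a1 (CAT1), the broadly expressed arginine and lysine carrier and the receptor of ecotropic murine retroviruses, was at 217.3 and 209.9 in knockdown libraries and at 229.1 and 339.9 in control libraries. Its groups did not overlap, yet knockdown libraries and control 1 were close (log2 change -0.38, SE 0.17, limma adjusted p = 0.139). Without control 1 the log2 change of Slc7a1 was -0.67, and without control 2 it was -0.10, so its size rested on which control was kept. Per kb, the level of Slc7a3 was 1.24 and 1.26 times that of Slc7a1 in knockdown libraries. It was 1.91 and 1.94 times in control libraries, a description without a test. This order rests on exon length, 3784 bases for Slc7a3 and 11530 for Slc7a1, since normalized counts of Slc7a1 were the higher in each library.

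Slc7a4, a relative of these carriers without a settled substrate, was higher in knockdown libraries, at a low level. It was at 11.2 and 12.3 normalized counts in knockdown libraries and 4.27 and 3.85 in control libraries. The groups were well apart (11.7 ± 0.789 against 4.06 ± 0.298, SD, n = 2 each). Slc7a4 rose 2.52-fold (log2 change 1.33, SE 0.18, limma adjusted p = 0.00595). Its log2 change lay between 1.27 and 1.40 with each library left out. Its exons overlap those of P2rx6 on the opposite strand by 554 bases in GENCODE M21, and without a stated strand setting reads of the pair may be mixed. P2rx6 itself had 12 and 20 reads in knockdown libraries and 3 and 2 in control libraries. Slc7a2 (CAT2), at 2.26 to 4.83 normalized counts, did not pass (limma adjusted p = 0.248), and Slc7a14 had 5 reads in all.

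In family 1, both carriers of neutral amino acids fell. Slc1a4 (ASCT1), which exchanges alanine, serine and cysteine, was at 17.3 and 13.5 normalized counts in knockdown libraries and at 36 and 50.7 in control libraries. The groups did not overlap (15.4 ± 2.66 against 43.3 ± 10.4, SD, n = 2 each). Slc1a4, of the 5 called members with a promoter window the 1 with a TGATGNAA match, fell 2.68-fold (log2 change -1.42, SE 0.19, limma adjusted p = 0.00613). Its log2 change lay between -1.66 and -1.18 with each library left out. Slc1a5 (ASCT2), the main glutamine exchanger of many dividing cells, was at 87.4 and 83.3 in knockdown libraries and 101.6 and 114.7 in control libraries. The groups did not overlap, but the difference was small (log2 change -0.34, SE 0.10, limma adjusted p = 0.0439). Slc1a5 did not pass without knockdown 1 (adjusted p = 0.212), without knockdown 2 (adjusted p = 0.368), in the authors' deposited table (adjusted p 0.0596) or in DESeq2 (adjusted p = 0.13). By library size only (adjusted p = 0.122), upper-quartile scaling (adjusted p = 0.0805) and DESeq2 size factors (adjusted p = 0.0551) it did not pass either.

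The glutamate carriers of family 1 gave no call. Slc1a3 (GLAST), known from astrocytes, was at 36.1 and 32.5 normalized counts in knockdown libraries and 32.6 and 28.3 in control libraries, with overlapping groups (limma adjusted p = 0.367). Slc1a1 (EAAC1), the neuronal and epithelial carrier, was at 4.0 and 3.97 in knockdown libraries and 5.81 and 4.75 in control libraries (limma adjusted p = 0.267). Slc1a2, Slc1a6 and Slc1a7, carriers of brain and retina, had 1, 30 and 8 reads in all.

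All 3 members of family 43 were higher in the libraries labelled knockdown, where 10.5% of all genes rose. Slc43a3, the nucleobase carrier, was at 13 and 17.4 normalized counts in knockdown libraries and at 5.45 and 2.26 in control libraries. Both knockdown libraries lay above both controls (15.2 ± 3.17 against 3.85 ± 2.25, SD, n = 2 each). It rose 3.5-fold (log2 change 1.81, SE 0.33, limma adjusted p = 0.0126), with 2.3 without control 1 and 1.32 without control 2.

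Slc43a1 (LAT3), a carrier of leucine and other neutral amino acids that needs no heavy chain, was at 13.7 and 17.1 in knockdown libraries and 7.73 and 4.98 in control libraries. It rose 2.26-fold (log2 change 1.18, SE 0.23, limma adjusted p = 0.0153) and did not pass without knockdown 2 (adjusted p = 0.104). Slc43a1 and Slc43a3 are neighbours on chromosome 2, both on the plus strand and 72984 bases apart in GENCODE M21. Slc43a2 (LAT4), which likewise carries large neutral amino acids without a heavy chain, lies on chromosome 11. Its level was 48.3 and 51.9 in knockdown libraries and 33.3 and 33.9 in control libraries. The spread was narrow (50.1 ± 2.57 against 33.6 ± 0.478, SD, n = 2 each), and Slc43a2 rose 1.48-fold (log2 change 0.56, SE 0.10, limma adjusted p = 0.013). The adjusted p was 0.0787 without knockdown 1 and 0.192 without knockdown 2. Exons of Slc43a2 overlap those of Gm45606 on the opposite strand by 922 bases.

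Within the family, 2, 1, 3 and 3 of the 3 members passed as higher without knockdown 1, knockdown 2, control 1 and control 2, and 3 passed under each scaling tried. Per kb, Slc43a2 stood at 0.0666 and 0.0759 of the level of Slc7a5 in knockdown libraries and 0.0341 and 0.024 in control libraries, so Slc7a5 was the more abundant transcript in each library.

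**Figure D3:**
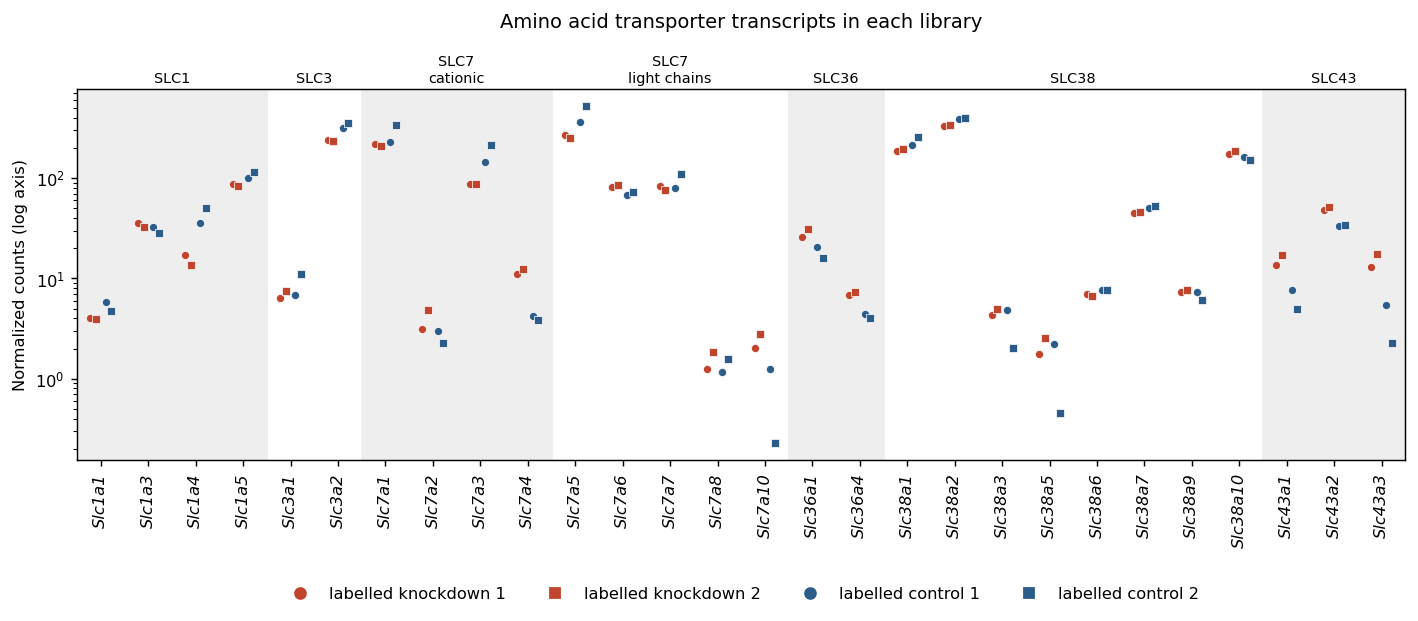
Normalized counts (log axis) of the 28 tested members in each of the 4 libraries, by family. Both knockdown libraries of Slc1a4, Slc7a3 and Slc7a5 lie below both controls and those of Slc7a4 and the 3 members of family 43 lie above, with control 2 often farther away than control 1.

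The proton-coupled family 36 held 1 call. Slc36a1 (PAT1), which moves small amino acids such as proline and glycine with protons, also out of lysosomes, was at 26.2 and 31.1 normalized counts in knockdown libraries and 20.6 and 15.8 in control libraries. It rose 1.55-fold (log2 change 0.63, SE 0.17, limma adjusted p = 0.037), without overlap of the groups. The adjusted p was 0.0849 without knockdown 1, 0.314 without knockdown 2 and 0.0749 without a variance trend. Slc36a4 (PAT4), a carrier of proline and tryptophan, was at 6.84 and 7.32 against 4.42 and 4.07 in control libraries and just missed the threshold (log2 change 0.62, SE 0.19, limma adjusted p = 0.0514). The edgeR quasi-likelihood test on recovered reads called it higher (adjusted p = 0.0478), as did limma with each other scaling and after thinning. DESeq2 (adjusted p = 0.239), limma without the low-value filter (adjusted p = 0.109) and the authors' deposited table (adjusted p 0.0703) did not. Slc36a2 (PAT2) had 8 and 10 reads in knockdown libraries and 2 and 0 in control libraries, a ratio of 6.72 with a 95% exact interval of 1.61 to 59.7 for counting error only. The authors' deposited table lists Slc36a2 as higher (adjusted p 0.0212), and Slc36a3 had 2 reads in all.

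The sodium-coupled family 38 gave no call among 8 members tested in limma, and 3 had an unadjusted p below 0.05. The share of all genes at that unadjusted threshold was not counted, so no excess can be read from the 3. In edgeR and in DESeq2 the count was 0 too, and by library size only Slc38a10 passed as higher (adjusted p = 0.0402). Without control 1, 3 rose and 3 fell, and without control 2, 1 rose and 2 fell. Slc38a2 (SNAT2), which imports glutamine and alanine and is induced by amino acid shortage, was at 330.1 and 336.2 normalized counts in knockdown libraries and 387.3 and 398.9 in control libraries. The groups did not overlap and each was narrow (log2 change -0.24, SE 0.08, limma adjusted p = 0.0607). Slc38a1 (SNAT1), another glutamine importer, was at 185.4 and 195.4 against 215.8 and 260 in control libraries (log2 change -0.31, SE 0.10, limma adjusted p = 0.0704). These values do not show that the transcripts stayed level, since both p-values lie near the threshold.

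Slc38a10, a little studied relative, was at 175.8 and 186.1 in knockdown libraries and 162.1 and 153 in control libraries (log2 change 0.20, SE 0.08, limma adjusted p = 0.121). Slc38a7 (SNAT7), the lysosomal exporter of glutamine and asparagine, was at 44.9 and 46.5 against 50 and 53.4 in control libraries (limma adjusted p = 0.239). Slc38a9, the lysosomal arginine sensor of mTORC1, was at 7.28 and 7.71 in knockdown libraries and 7.36 and 6.11 in control libraries, with overlapping groups (log2 change 0.14, SE 0.19, limma adjusted p = 0.619). Slc38a6, a member of unsettled function, was at 7.01 and 6.7 against 7.73 and 7.69 in control libraries (limma adjusted p = 0.565). Slc38a3 and Slc38a5 (SNAT3 and SNAT5), glutamine carriers of liver and brain, stood between 0.453 and 4.91, with control 2 lowest in both genes. Slc38a8 had 23 reads and Slc38a11 had 1.

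In total 13 members were too low to be tested, with at most 30 reads over the 4 libraries. Slc7a12 and Slc7a13 had no read, which allows up to 0.221 to 0.679 normalized counts per library (3 reads). Slc7a9, the kidney partner of Slc3a1, had 3 and 4 reads in knockdown libraries and 0 and 0 in control libraries, and Slc7a15 had 2 in all.

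**Figure D4:**
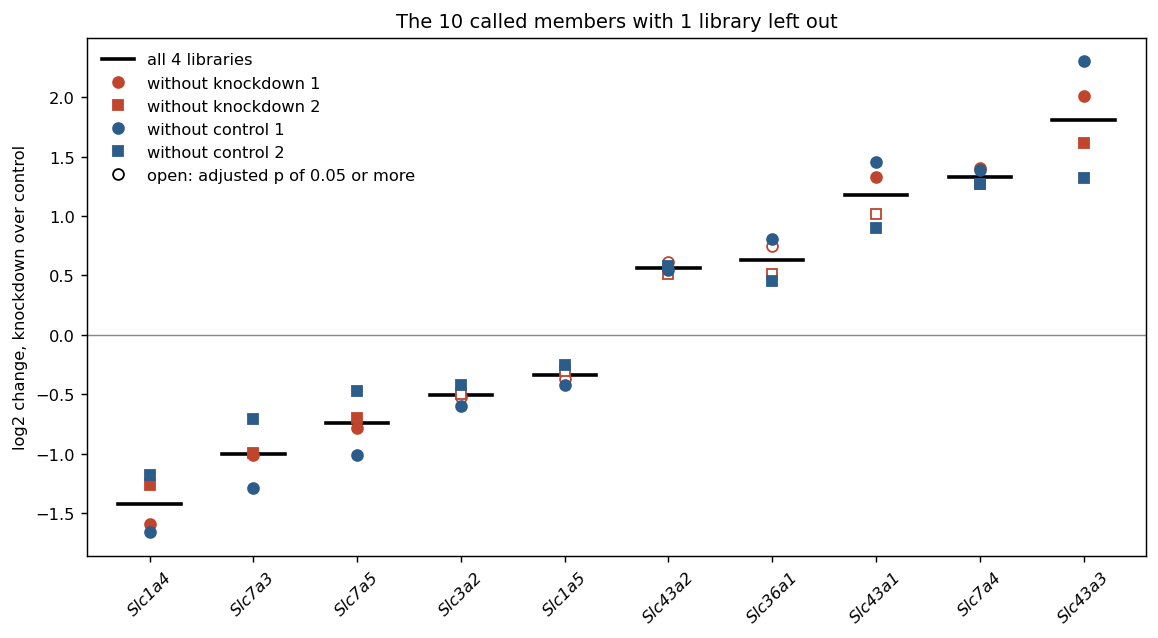
Log2 change (vertical axis) of the 10 called members with all 4 libraries (bars) and with each library left out (points, open where the adjusted p was 0.05 or more). The sign held in each case. Each such fit takes its spread from the group with 2 libraries alone, so filled points without a control rest on the spread of the knockdown libraries.

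A list of 8 members widely described as induced through ATF4 or amino acid limitation holds Slc1a4, Slc1a5, Slc3a2, Slc7a1, Slc7a3, Slc7a5, Slc7a11 and Slc38a2. The list was drawn up with earlier results of these data known and holds all 5 members that fell, so its share of calls is no independent evidence. Of its 7 tested members, 5 fell (71.4%, against 12.4% of all genes tested) and 0 rose in limma, and the groups of all 7 stood apart with knockdown libraries lower, where 34.6% of all genes did so. The median log2 change was -0.51, against 0.12 for all tested members and -0.01 for all genes. Without knockdown 1, knockdown 2, control 1 and control 2, the members that fell numbered 3, 3, 7 and 6. Without a variance trend 2 fell, and with each other scaling 4 did. The level in control 2 was above that in control 1 for 8 of the 8 members, against 46.8% of all genes tested, so in these genes control 2 lay farther from the knockdown libraries than control 1 did. Of the 5 members called higher, control 2 was below control 1 in 4. The part of this difference between controls in the result was not tested.

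Regulators and targets of the amino acid response, also listed with earlier results of these data known, were read from the same fit. Of 20 genes, 7 fell (35%, against 12.4% of all genes tested) and 1 rose (5%, against 10.5%), with a median log2 change of -0.34. The groups stood apart with knockdown libraries lower for 13 of the 20 genes and higher for 5, against 34.6% lower and 32.1% higher among all genes tested. Atf4 was at 256.4 and 236.6 normalized counts in knockdown libraries and 399.3 and 534 in control libraries (log2 change -0.90, SE 0.14, limma adjusted p = 0.00781). The asparagine synthetase gene Asns (log2 change -1.27) and Trib3, a pseudokinase induced by ATF4 (-0.90), fell, as did Chac1 (-2.08), which degrades glutathione. Ddit4, an inhibitor of mTORC1, rose (1.31). Ddit3, Sesn2 and the amino acid-sensing kinase gene Eif2ak4 (GCN2) did not pass, with limma adjusted p of 0.106, 0.227 and 0.181. Control 2 was above control 1 in 16 of the 20 genes, and 6, 4, 14 and 9 fell without knockdown 1, knockdown 2, control 1 and control 2. Without a variance trend 3 fell.

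Of 30 genes that signal amino acids from the lysosome to mTORC1, 3 rose (10%) and 5 fell (16.7%), shares near the 10.5% and 12.4% of all genes tested (median -0.10). Among the Rag GTPase genes, Rragd rose (log2 change 1.10, limma adjusted p = 0.00393), while Rragb (-1.24) and Rraga (-0.60) fell, as did Lamtor1 (-0.77), part of their lysosomal anchor. Rragc overlapped between groups (log2 change -0.04, limma adjusted p = 0.852). Of these genes 1, 1, 5 and 6 rose and 3, 1, 12 and 10 fell without knockdown 1, knockdown 2, control 1 and control 2. The median was 0.01 by library size only.

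Amino acid and peptide transporters outside the 6 families gave 3 that rose (23.1%, against 10.5% of all genes tested) and 1 that fell (7.69%, against 12.4%) among 13 tested, of 20 in the table. The lysosomal cysteine importer Mfsd12 rose (log2 change 1.12) and so did the peptide carriers Slc15a3 (0.56) and Slc15a4 (0.49), while the taurine transporter Slc6a6 fell (-0.39, limma adjusted p = 0.014). Without knockdown 1, knockdown 2, control 1 and control 2, 1, 1, 6 and 4 rose and 0, 0, 2 and 2 fell. Of 8 tested partners that bind or degrade transporters, Lgals3 fell (-0.69; 12.5%, near the 12.4% of all genes) and 0 rose in limma. In limma 5 had an unadjusted p below 0.05, but the share of all genes at that threshold was not counted, so no excess can be read from this. In edgeR and in DESeq2, 2 fell and 0 rose, and without knockdown 1 or knockdown 2 none passed. Without control 1, 3 partners rose and 3 fell, and without control 2, 1 rose and 3 fell. By library size only and by upper-quartile scaling, 1 rose and 1 fell. Among 223 other SLC genes tested, 36 rose and 16 fell (16.1% and 7.18%, median 0.15). The share that rose among the members (17.9%) was thus near that of the other SLC genes (16.1%). The share that fell was 17.9% among the members against 7.18% among the other SLC genes, without a test of either difference. Among those other SLC genes 12, 6, 90 and 71 rose and 4, 3, 40 and 32 fell without knockdown 1, knockdown 2, control 1 and control 2.

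Base composition moved with the calls over the whole table, and its part in the members' calls was not tested. Over all genes tested, 19.3% of the 20% with the lowest transcript GC content fell and 4.27% rose, while 6.18% of the 20% with the highest GC content fell and 19% rose. The members that fell had a GC content of 49.4% to 56.7% (median 53.4%) and those that rose 47.1% to 54.9% (median 53.5%), against a median of 50.3% for all genes tested. Of the 5 members that fell, 4 were above 52.2%, as were 4 of the 5 that rose. Exon lengths of the members that fell were 3529 to 4173 bases and those of the members that rose 4153 to 10042 bases, against a median of 4032 bases for all genes tested.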

How the data were processed

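Polyadenylated RNA was read single-end at 100 bp from 4 libraries. The submitters' processing notes list Bowtie2 2.3.4.3, SAMtools 1.9, HTSeq 0.11.2, edgeR 3.26.8 and build mm9. The sources used here give no roles, annotation release or strand setting, and reads of overlapping genes may be split or shared. The deposited signal values are counts per gene, scaled by effective library size, called normalized counts here: 100% of them were whole reads within 0.001. The same table holds the authors' log2 fold change, a likelihood ratio score and p-values, per the file headers; the score was not used. No per-sample column was left unused (0).

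Genes were tested with limma 3.58.1 (R 4.3.3) on log2(value + 1), a scale that understates changes of low genes, with a variance trend, after edgeR 4.0.16's filterByExpr on recovered reads kept 14890 genes. Eif4a2 and the members were read from this fit over the whole table, with Benjamini-Hochberg adjustment. With 2 libraries against 2, an exact permutation test of a single gene cannot go below p = 0.333. Alternatives were edgeR's quasi-likelihood test (1784 genes higher, 1958 lower) and DESeq2 1.42.0 on recovered reads, other pseudocounts, filters and scalings, thinning to equal totals, each library left out and a replicate block. The limma step was tested on simulated data. A fit with 1 library in a group takes its spread from the other group alone, as if the lone library varied like it. Passing without a control thus rests on the spread of the knockdown libraries, which lay closer together than the controls did. Intervals of read ratios cover counting error only.

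Named are the members that were called, the tested members with a mean log2(value + 1) of at least 3, and a few carriers and list genes set by name. Slc7a2, Slc7a8, Slc7a10, Slc36a4, Slc38a3, Slc38a5 and the untested members were added to account for each member. The members and lists were chosen with earlier results of these data known. Exon lengths and overlaps came from GENCODE M21 (GRCm38), matched by gene ID for 41 members, and promoters from RefSeq by symbol.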

Additional observations from a re-analysis of the deposited data

How the results depend on the processing

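The 10 called members kept their direction under all 16 alternatives, and Slc1a4, Slc7a3, Slc7a4 and Slc43a3 (4 of 10) also passed the threshold in each. Against 5 members that rose and 5 that fell, 8 rose by library size only and 2 fell without a variance trend, and with 1 library left out 2 to 13 rose and 3 to 11 fell. Over all genes, against 1567 that rose and 1851 that fell, DESeq2 gave 969 that rose, a fit without a variance trend 864 that fell and library size only 996 that fell. With 1 library left out, 259 to 3784 rose and 394 to 3940 fell. Library size only moved the median of all genes by 0.114 (log2), and of its calls 68.4% were higher, against 58.6% by upper-quartile scaling and 45.8% as deposited. Eif4a2 had a log2 change of 0.80 and an adjusted p of 0.0581 without a variance trend. Members that changed sign were not called: with 1 library left out Slc7a7 ran from -0.47 to 0.0031, Slc7a8 from -0.0807 to 0.27, Slc38a3 from -0.0594 to 0.89 and Slc38a5 from -0.0273 to 1.12, and Slc38a6 was 0.0518 after thinning. The causes were not tested. Same-numbered libraries did not deviate together (correlation 0.0356). Since the shRNA of each library is not stated, this cannot settle whether same-numbered libraries were made together. A fit with the replicate block gave 7 members that rose and 7 that fell, and 2252 and 2380 over all genes. Control 2, with 4604200 reads, limits the genes of low level, since 3 reads amount to 0.679 normalized counts there.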
